A study of Mus musculus with 21 samples.

Results

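Of the 24594 genes in each count table, 9 genes of branchiomeric muscle were followed: Tcf21, Msc and Lhx2, Myf5, Myod1 and Myog, and Des, Actc1 and Ttn. They were taken by symbol, and each was found in both tables. RNA of mouse embryos was measured in 21 libraries of 7 groups, with 3 libraries per group, described in the methods as independent biological replicates. The first table (the genotype series) held the second and the third pharyngeal arch of E10.5 embryos (PA2 and PA3), each from wild type (WT) embryos and from HIRE1del/del embryos, the libraries titled delta-E3 in the labels. In the HIRE1del/del embryos a distant element on chromosome 6 that contacts Hoxa2 had been deleted in the mouse line with CRISPR/Cas9. The second table (the stage series) held WT cells of the E10.5 PA2, the E12.5 pinna (the external ear, which PA2 forms) and the E14.5 pinna. These cells carried Wnt1::Cre and Rosa-RFP, an allele pair in which the Wnt1 promoter marks neural crest progenitors and their descendants in red, and were sorted by FACS. Tissue was digested with trypsin at E10.5 and E12.5 and with papain at E14.5, so stage and digestion cannot be told apart between E14.5 and the earlier stages. All mice were of mixed C57Bl/6J and CD1 background, and male and female embryos were pooled. By the labels, every library is of cranial neural crest cells, but for the genotype series the methods state dissection of the arches and no sorting.

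The muscles of the face, jaw and throat are called branchiomeric because they form in the pharyngeal arches, from a core of unsegmented mesoderm that the neural crest surrounds. In this core the transcription factors Tcf21, Msc and Lhx2 act upstream of the myogenic regulatory factors Myf5 and Myod1, and Myog then drives differentiation into fibres that build desmin, actin and titin. Neural crest cells give the connective tissue and tendons of these muscles but not the fibres, and Des, Actc1 and Ttn are also used by heart muscle, with Des and Actc1 in smooth muscle lineages as well.

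A library of the genotype series held 25.8 to 32.2 M counts, and one of the stage series 25.8 to 49.1 M. Hoxa2, whose element was removed, followed the labels: it stood at 73.4 to 84.2 CPM (counts scaled to the library total) in WT PA2, 4.75 to 7.09 CPM in HIRE1del/del PA2, 56.1 to 65.1 CPM in WT PA3 and 22.1 to 25.6 CPM in HIRE1del/del PA3. The genotype series held markers of cells other than crest. The summed CPM of 5 erythroid genes was 1491 to 3261 in PA2 and 12112 to 24019 in PA3, that of 5 endothelial genes 237 to 294 and that of 5 epithelial genes 168 to 524, with no gene of these lists at 0 in a group. The sorted E10.5 PA2 libraries held 1.77 to 7.31, 6.79 to 8.99 and 9.17 to 11.4 CPM of the same 3 lists, and 672 to 733 CPM of 5 crest mesenchyme genes. In bulk samples such as these, fewer cells of a type and less RNA per cell cannot be told apart.

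Each of the 9 genes is protein coding, and positions are those of GENCODE M21 on GRCm38. Tcf21 lies at chr10:22817281-22820174 on the minus strand, Msc at chr1:14753346-14755992 on the minus strand and Lhx2 at chr2:38339281-38369733 on the plus strand. Myf5 lies at chr10:107482908-107486134 on the minus strand, Myod1 at chr7:46376474-46379099 on the plus strand and Myog at chr1:134289989-134292548 on the plus strand. Des lies at chr1:75360329-75368579 on the plus strand, Actc1 at chr2:114047282-114053548 on the minus strand and Ttn at chr2:76703980-76982547 on the minus strand. Because the library kit does not mark strand, reads from an overlapping antisense gene cannot be told apart from those of the gene itself. Such a gene covers 539 exonic bases of Msc (Gm9947, 21.2% of the GENCODE exons), 220 of Des (Gm15179, 5.86%) and 453 of Ttn (Gm13938, 0.388%). The counts were made over UCSC known genes, for which the overlap was not measured. Of the 50-base stretches of Actc1, a member of the closely related actin family, 0 of 1568 were found in a transcript of another gene.

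In WT PA2 the progenitor factor Tcf21 stood highest for its length, at 9.68 CPM per kb of exon. Des, the intermediate filament of muscle, followed at 4.35 CPM per kb. Lhx2, Myf5 and Msc came next at 3.46, 3.32 and 2.98 CPM per kb, with overlapping libraries, so their order is not fixed by these data. Actc1 (0.874 CPM per kb), Myog (0.553) and Myod1 (0.370) were lower, the last pair again overlapping, and the very long Ttn was lowest at 0.117 CPM per kb. In WT PA3 the order was another one, led by Actc1 at 12.7 CPM per kb, Tcf21 at 7.78 and Des at 5.21, none of which overlapped its neighbour. From Myf5 (1.93 CPM per kb) down through Lhx2 (1.10), Myog (0.911), Msc (0.814), Myod1 (0.454) and Ttn (0.431), each gene overlapped the next.

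**Figure D1:**
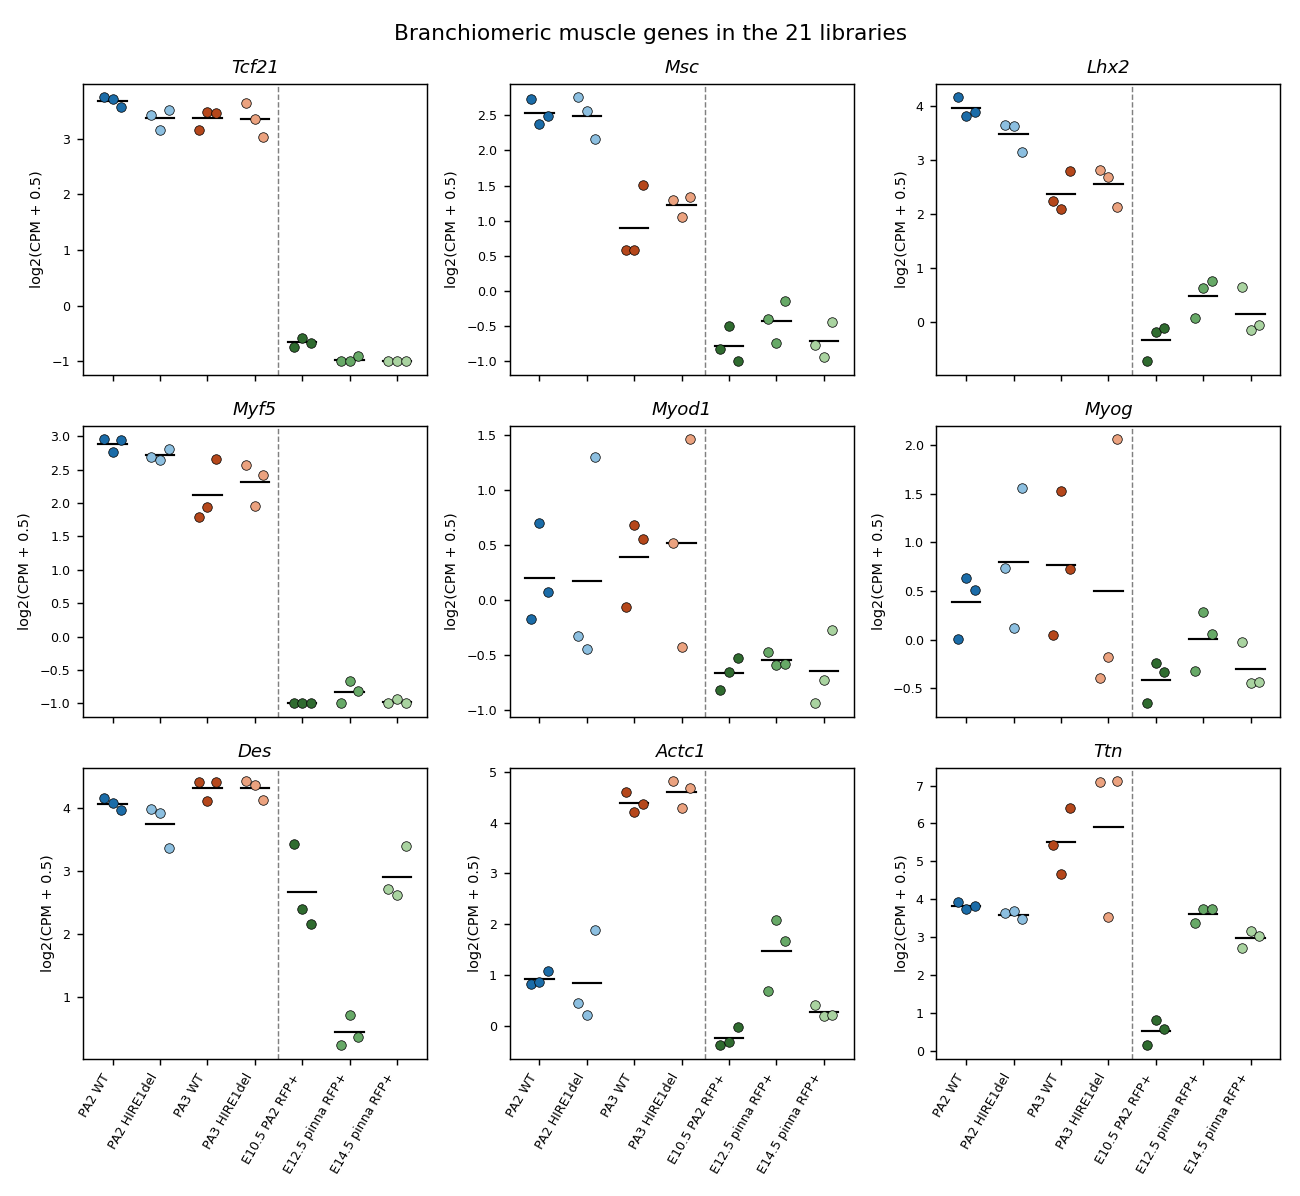
Levels of the 9 genes in all 21 libraries. Each panel shows 1 gene, with the 7 groups on the x axis and log2(CPM + 0.5) on the y axis; points are libraries, bars are group means, and the dashed line parts the genotype series from the stage series, which were scaled separately. Tcf21, Msc, Lhx2 and Myf5 sit above the sorted libraries in every dissected group, and Actc1 stands higher in every PA3 library than in any PA2 library.

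The first question was whether loss of HIRE1 changed these genes in either arch. All 9 passed the filter of the genotype series (1 CPM in at least 2 libraries) and 0 of 9 passed an adjusted p of 0.05 in PA2, in PA3 or in the difference between the arches. Over all genes tested, 0.438% passed in PA2, 0.216% in PA3 and 0.0487% in the difference, so few genes of any kind were called. At an unadjusted p under 0.05 edgeR's quasi-likelihood test picked 1 gene in PA2, 0 in PA3 and 0 in the difference, limma-voom gave the same counts, and DESeq2 gave 1, 0 and 1, with none past the adjusted threshold by either tool.

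Lhx2, a LIM homeodomain factor of the muscle progenitors, was the gene picked in PA2. It stood at 17.6, 13.6 and 14.47 CPM in WT PA2 and at 12.1, 11.96 and 8.35 CPM in HIRE1del/del PA2. The groups did not overlap, and the log2 difference was -0.49 (SE 0.218, unadjusted p = 0.0411, adjusted p = 0.553, edgeR). In PA3 Lhx2 stood at 4.25, 3.75 and 6.50 CPM in WT and 6.58, 5.94 and 3.89 CPM in HIRE1del/del libraries, which overlapped, with a log2 difference of 0.17 (adjusted p = 0.860). The difference between the effects in PA2 and PA3 was -0.67 on the log2 scale and did not pass the threshold (adjusted p = 0.887).

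Tcf21, a basic helix-loop-helix (bHLH) factor, stood at 12.9, 12.52 and 11.3 CPM in WT PA2 and at 10.3, 8.38 and 10.9 CPM in HIRE1del/del PA2. The groups did not overlap, but the log2 difference of -0.31 did not pass (adjusted p = 0.632). Msc (also called MyoR), its relative, overlapped between the genotypes in both arches, with log2 differences of -0.02 in PA2 (95% interval -0.60 to 0.56) and 0.33 in PA3 (-0.34 to 1.01). Myf5, the earliest of the myogenic regulatory factors in most muscles, differed by -0.19 in PA2 (-0.67 to 0.30) and 0.18 in PA3 (-0.33 to 0.68) on the log2 scale. Each interval holds the differences that these libraries do not exclude at the 95% level.

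For the low genes the intervals were wide. The log2 difference of Myod1 in PA2 was 0.28 with a 95% interval of -1.47 to 2.03, and that of Myog 0.75 with an interval of -1.08 to 2.57. Sizable changes in either direction lie within both intervals and are thus not excluded by these libraries. Des differed by -0.30 in PA2 (-0.63 to 0.03) and -0.01 in PA3 (-0.33 to 0.31). Actc1, the alpha-actin of the heart and of early skeletal fibres, differed by 0.15 in PA2 (-0.80 to 1.10) and 0.22 in PA3 (-0.40 to 0.85). Ttn, the giant elastic protein of the sarcomere, differed by -0.25 in PA2 (-1.73 to 1.24) and 0.91 in PA3 (-0.40 to 2.22). In PA2 the genotypes did not overlap for Ttn, at 12.9 to 14.6 CPM in WT and 10.6 to 12.3 CPM in HIRE1del/del. Its PA2 interval is not the spread of PA2 alone, because the fit shares 1 spread per gene with PA3, where Ttn ranged from 11.1 to 139 CPM. The median log2 difference of the 9 genes was -0.19 in PA2 and 0.18 in PA3, beside medians of -0.01 and -0.00187 over all genes tested. Of the 16 genes of a myogenic differentiation list, 8 were tested and 0 passed in either arch, as did 0 of 13 sarcomere genes tested of 20 and 0 of 7 pharyngeal mesoderm genes.

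**Figure D2:**
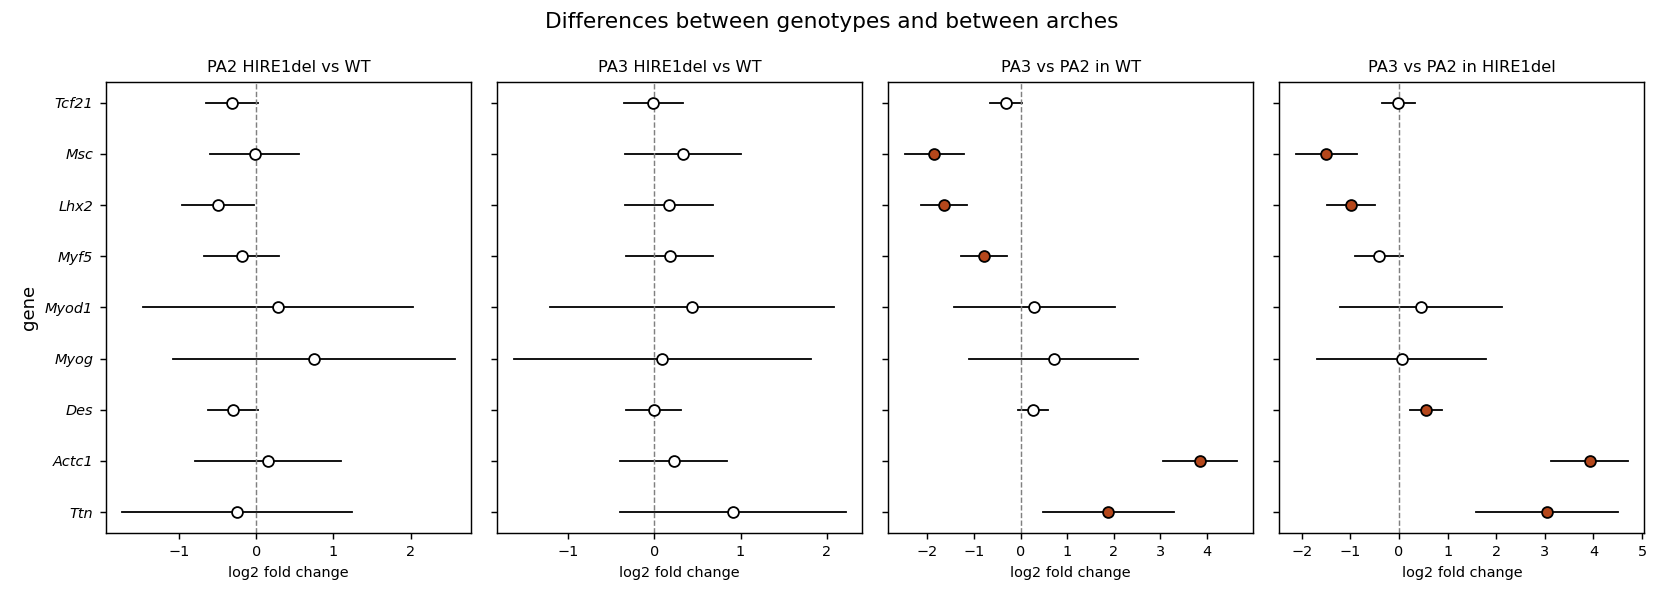
Differences of the 9 genes within the genotype series. The x axis gives the log2 fold change with its 95% interval for HIRE1del/del against WT in PA2 and in PA3, and for PA3 against PA2 in WT and in HIRE1del/del; filled points passed an adjusted p of 0.05. The genotype intervals of 8 genes cover 0 in both arches, Lhx2 in PA2 excepted, while Msc, Lhx2, Actc1 and Ttn have filled points in both comparisons of the arches; those of Ttn did not pass with limma-voom.

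Some of these genes differed between the arches, as did many of all genes tested. In WT embryos 5 of the 9 passed between PA3 and PA2, where 36.5% of all genes tested passed. In HIRE1del/del embryos 5 of 9 passed, where 33.4% of all genes did. With 1 library left out, 3 to 4 passed in WT and 4 to 6 in HIRE1del/del, so the counts are not read as a trait of the 9 genes. In WT, Msc, Lhx2 and Myf5 were lower in PA3 and Actc1 and Ttn higher. In HIRE1del/del, Msc and Lhx2 were lower in PA3 and Des, Actc1 and Ttn higher. Medians of the 9 log2 differences were 0.26 and 0.05, against -0.00065 and -0.00015 over all genes.

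Among the progenitor factors Msc showed the widest gap. It stood at 6.12, 4.66 and 5.11 CPM in WT PA2 and at 0.995, 1.00 and 2.35 CPM in WT PA3. No library of one arch reached the range of the other, and Msc was 3.60-fold lower in PA3 (log2 -1.85, SE 0.295, adjusted p = 0.000362, edgeR). In HIRE1del/del embryos Msc stood at 6.28, 5.42 and 3.95 CPM in PA2 and 1.95, 1.57 and 2.02 CPM in PA3, again without overlap and 2.82-fold lower (adjusted p = 0.00158).

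Lhx2, with the values given above, was 3.13-fold lower in WT PA3 than in WT PA2 (log2 -1.65, SE 0.229, adjusted p = 0.000127). In HIRE1del/del embryos it was 1.97-fold lower (log2 -0.98, adjusted p = 0.00523). Neither genotype showed overlap between the arches. Tcf21 did not separate them: it stood at 8.38, 10.6 and 10.6 CPM in WT PA3 and 11.97, 9.76 and 7.65 CPM in HIRE1del/del PA3, with log2 differences of -0.31 (95% interval -0.65 to 0.03) in WT and -0.01 (-0.36 to 0.33) in HIRE1del/del.

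Myf5 stood at 7.28, 6.31 and 7.17 CPM in WT PA2 and at 2.95, 3.32 and 5.79 CPM in WT PA3. The arches did not overlap, and Myf5 was 1.71-fold lower in PA3 (log2 -0.78, SE 0.230, adjusted p = 0.0179). This call rested on few libraries, since it was kept in 2 of the 6 fits that left out 1 library of these groups and lost without WT PA2 library 1 or 3 or WT PA3 library 1 or 2 (adjusted p up to 0.0741). In HIRE1del/del embryos Myf5 stood at 5.98, 5.73 and 6.50 CPM in PA2 and 5.46, 3.39 and 4.87 CPM in PA3. The arches did not overlap here either, but the log2 difference of -0.41 did not pass (adjusted p = 0.193).

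PA2 and PA3 libraries of the same genotype and number deviated together from their group means (r of 0.213 to 0.382 across genes). Other pairs of libraries from different groups gave r of -0.312 to 0.293, so these values do not settle whether equal numbers share an origin. The arches were also set side by side by number. Msc, Lhx2 and Myf5 were higher in PA2 in 6 of 6 pairs, by 1.96 to 6.15 times, 1.83 to 4.14 times and 1.09 to 2.47 times. Actc1 was higher in PA3 in 6 of 6 pairs, by 7.91 to 32.1 times, and Des in 6 of 6, by 1.02 to 1.74 times. Ttn was higher in PA3 in 5 of 6 pairs, and Tcf21 higher in PA2 in 4 of 6.

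Actc1 differed most between the arches. It stood at 1.28, 1.33 and 1.63 CPM in WT PA2 and at 23.7, 18.1 and 19.98 CPM in WT PA3, 14.4-fold higher (log2 3.85, SE 0.366, adjusted p = 5.61e-06). In HIRE1del/del embryos it stood at 0.864, 0.662 and 3.18 CPM in PA2 and 27.7, 19.1 and 25.1 CPM in PA3, 15.1-fold higher (log2 3.92, adjusted p = 5.08e-06). Every PA3 library stood above every PA2 library in both genotypes. PA2 library 3 of HIRE1del/del was high for its group, and without it the log2 difference was 4.96.

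Markers of smooth muscle were among those of several cell types that differed between the arches as Actc1 did. Of all genes tested, 36.5% passed between the arches in WT and 33.4% in HIRE1del/del, in either direction. The summed CPM of 5 smooth muscle genes, none at 0 in a group, was 5.49 to 8.98 in PA2, 137 to 155 in WT PA3 and 115 to 160 in HIRE1del/del PA3. All 5 genes passed as higher in PA3 in both genotypes, among them Acta2, smooth muscle alpha-actin (log2 4.86 in WT and 5.04 in HIRE1del/del), and Tagln, an actin-binding protein (3.78 and 3.65). Of 5 neuron genes and 5 erythroid genes all were higher in PA3 in both genotypes too, with median log2 differences of 3.94 and 4.58 for neurons and 3.14 and 3.13 for erythroid cells, beside 3.56 and 3.65 for smooth muscle. The summed CPM of the neuron genes was 10.4 to 24.5 in PA2 and 39.8 to 128 in PA3. Of 5 epithelial genes 4 were higher in PA3 in both genotypes, and of 5 crest mesenchyme genes 3 were lower and 1 higher. The part of these cell types in the difference of Actc1 was not tested.

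Ttn stood at 14.6, 12.9 and 13.6 CPM in WT PA2 and at 42.3, 25.0 and 84.4 CPM in WT PA3. The arches did not overlap, and Ttn was 3.69-fold higher in PA3 (log2 1.89, SE 0.655, adjusted p = 0.0377). Leaving out each of the 6 libraries in turn kept this call in 1 fit, without WT PA3 library 2 (adjusted p = 0.0271), with adjusted p up to 0.166 in the others and log2 differences of 1.30 to 2.21. In HIRE1del/del embryos Ttn stood at 11.8, 12.3 and 10.6 CPM in PA2 and at 136, 11.1 and 139 CPM in PA3. Here PA3 library 2 lay within the PA2 range while the other PA3 libraries lay more than 10 times above it, and the fit gave an 8.23-fold higher mean (log2 3.04, SE 0.678, adjusted p = 0.00389). With limma-voom neither Ttn call passed (log2 1.73, adjusted p = 0.198 in WT and log2 2.35, adjusted p = 0.109 in HIRE1del/del).

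The libraries high in Ttn were those high in heart muscle genes. The summed CPM of 6 cardiomyocyte genes was 2.75 to 4.59 in PA2, 11.4, 7.79 and 17.2 in WT PA3 and 24.4, 5.73 and 30.8 in HIRE1del/del PA3, with Myl2 at 0 in PA2 and Nppa at 0 or near it throughout. Of the 4 list genes tested 3 were higher and 0 lower in WT PA3, where 36.5% of all genes tested passed. In HIRE1del/del PA3 3 were higher and 1 lower, where 33.4% of all genes passed. The higher ones included Myh6, the atrial myosin heavy chain (log2 3.58 and 3.73), and Myl7, an atrial myosin light chain (2.57 and 3.76), and the lower one was Tnni3, cardiac troponin I (log2 -0.64 in HIRE1del/del). Without the 3 PA3 libraries highest in this sum, an alternative chosen after seeing the data that left 1 HIRE1del/del PA3 library, the log2 difference of Ttn was -0.07 in HIRE1del/del and 1.30 in WT; the sum and Ttn are high in the same libraries, so a lower value was fixed by the choice and is no test. The part of heart tissue in the difference was not tested.

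**Figure D3:**
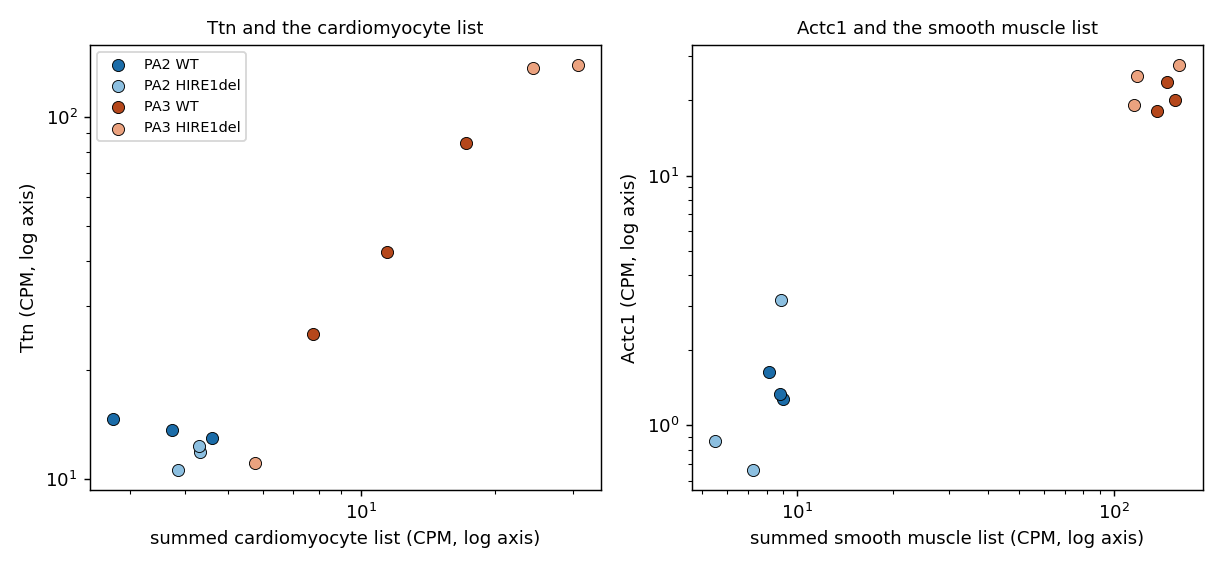
Ttn and Actc1 beside marker sums in the 12 libraries of the genotype series. The left panel plots Ttn (CPM) against the summed CPM of 6 cardiomyocyte genes and the right panel Actc1 (CPM) against the summed CPM of 5 smooth muscle genes, all on log axes, with 1 point per library. Ttn is spread over the PA3 libraries from 11.1 to 139 CPM, while Actc1 falls into a low PA2 cloud and a high PA3 cloud.

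Des stood at 17.3, 16.5 and 15.2 CPM in WT PA2 and at 20.9, 16.8 and 20.9 CPM in WT PA3. The arches overlapped and the log2 difference of 0.26 did not pass (adjusted p = 0.193). In HIRE1del/del embryos Des stood at 15.4, 14.6 and 9.76 CPM in PA2 and at 21.1, 20.2 and 17.0 CPM in PA3, without overlap, and was 1.47-fold higher (log2 0.55, adjusted p = 0.0131). That call was lost without HIRE1del/del PA3 library 1 (log2 0.49, adjusted p = 0.0518).

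The wider lists were mixed. Beside them, 36.5% of all genes tested passed between the arches in WT and 33.4% in HIRE1del/del. Of 13 sarcomere genes tested of 20, 6 were higher and 1 lower in WT PA3, and 7 higher and 1 lower in HIRE1del/del PA3. Tnnt2, cardiac troponin T (log2 4.52 in WT and 4.09 in HIRE1del/del), and Myh7, the slow and ventricular myosin heavy chain (3.32 and 3.84), had the widest gaps, and both serve heart as well as skeletal muscle. Of 8 myogenic differentiation genes tested of 16, 4 were higher and 1 lower in WT PA3 and 5 higher and 0 lower in HIRE1del/del PA3; Cdh15, M-cadherin of muscle precursors, was the lower one in WT (log2 -0.93), and the cofactor gene Vgll2 was higher in both (1.70 and 2.56). Of 7 pharyngeal mesoderm genes 4 were higher and 1 lower in WT PA3 and 3 higher and 1 lower in HIRE1del/del PA3, with Tbx1, a T-box factor of that mesoderm, higher in WT (log2 1.95) and Isl1, a LIM homeodomain factor, higher in both (0.82 and 1.02). Of 3 genes of hypaxial and somitic muscle, Pax7, which also marks crest cells, was lower in PA3 in both genotypes (log2 -1.98 and -2.30).

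The upstream sequences of the genes that carry these comparisons are shown because bHLH factors bind E-boxes and the contractile genes are known targets of MEF2 and serum response factor. RefSeq promoter windows (GRCm38.p6) were found for 7 of the 9 genes. The 250 bases before the start were searched on both strands for the E-box CANNTG, a MEF2 motif (YTAWWWWTAR) and a CArG motif (CCWWWWWWGG). Here N is any base, Y is C or T, W is A or T and R is A or G. At least 1 E-box stood in 66.2% of 32851 promoters, at least 2 in 31.8%, the E-box CAGCTG in 13% (it is also counted as CANNTG), MEF2 in 2.92% and CArG in 1.47%. The 4 windows with a match are printed 5′ to 3′ along the gene's strand, for Des at chr1:75360042-75360291 (plus), Myog at chr1:134289754-134290003 (plus), Ttn at chr2:76982548-76982797 (minus) and Actc1 at chr2:114052876-114053125 (minus). Positions count from the RefSeq start, which differs from the GENCODE start given above for Des, Myog and Actc1. The Actc1 window lies inside the GENCODE gene, and the Myog window ends past its GENCODE start. Capitals mark E-boxes in Des and Myog, MEF2 and then an E-box in Ttn, and CArG in Actc1.
Des: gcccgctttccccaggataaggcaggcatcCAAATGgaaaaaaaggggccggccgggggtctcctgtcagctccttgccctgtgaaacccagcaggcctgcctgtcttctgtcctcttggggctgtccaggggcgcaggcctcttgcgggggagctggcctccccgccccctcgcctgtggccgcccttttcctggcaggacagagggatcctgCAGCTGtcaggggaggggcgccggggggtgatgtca
Myog: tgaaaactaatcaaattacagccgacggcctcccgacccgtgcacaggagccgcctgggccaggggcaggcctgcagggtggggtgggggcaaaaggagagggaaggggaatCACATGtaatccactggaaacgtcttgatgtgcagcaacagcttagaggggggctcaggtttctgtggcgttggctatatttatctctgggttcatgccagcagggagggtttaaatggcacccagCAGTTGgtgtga
Ttn: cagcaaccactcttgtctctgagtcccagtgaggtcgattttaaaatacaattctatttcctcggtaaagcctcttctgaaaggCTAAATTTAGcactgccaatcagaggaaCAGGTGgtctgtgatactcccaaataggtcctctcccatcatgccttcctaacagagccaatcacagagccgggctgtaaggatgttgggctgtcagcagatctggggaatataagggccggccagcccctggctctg
Actc1: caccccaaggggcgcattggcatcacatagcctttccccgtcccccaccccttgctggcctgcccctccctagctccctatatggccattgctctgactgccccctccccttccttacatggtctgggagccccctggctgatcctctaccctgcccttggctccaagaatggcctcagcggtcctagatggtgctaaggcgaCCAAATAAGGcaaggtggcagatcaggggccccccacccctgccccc

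Des and Myog each had 2 E-boxes, at -220 and -36 and at -138 and -12 from the start, of which that of Des at -36 read CAGCTG. The Myog window also holds CTATATTTAT, which differs from the MEF2 pattern only in its last base and was not counted as a match. Ttn had an E-box at -138 and a MEF2 match at -166, and Actc1 a CArG match at -47 and no E-box. The windows of Lhx2, Tcf21 and Myf5 held none of these letters. Matches describe the letters only, and E-boxes stood in most promoters.

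Myod1 and Myog, which commit cells to muscle and drive their differentiation, were low and uneven. Myod1 stood at 0.387, 1.122 and 0.554 CPM in WT PA2, at 0.301, 0.234 and 1.96 CPM in HIRE1del/del PA2, at 0.459, 1.11 and 0.965 CPM in WT PA3 and at 0.935, 0.245 and 2.26 CPM in HIRE1del/del PA3. Neither arch nor genotype separated these libraries, and the log2 difference between the arches was 0.30 in WT (95% interval -1.44 to 2.03) and 0.45 in HIRE1del/del (-1.21 to 2.12).

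Myog stood at 0.503, 1.05 and 0.924 CPM in WT PA2, at 1.16, 0.585 and 2.44 CPM in HIRE1del/del PA2, at 0.536, 2.39 and 1.16 CPM in WT PA3 and at 0.262, 0.385 and 3.68 CPM in HIRE1del/del PA3. The groups overlapped throughout. Its log2 difference between the arches was 0.71 in WT and 0.05 in HIRE1del/del, and leaving out HIRE1del/del PA3 library 3 turned the latter to -2.09 with an adjusted p of 0.0478.

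The spread followed the library number more than the arch. HIRE1del/del number 3 had the highest Myod1 and the highest Myog of its group in both PA2 and PA3, and the lowest Lhx2 and Des of its group in both. In WT, number 1 had the lowest Myod1 and Myog of its group in both arches and number 2 the highest. HIRE1del/del number 3 also had the lowest epithelial sum of its group in both arches (168 CPM in PA2 and 336 CPM in PA3) and the highest crest mesenchyme sum (636 and 524 CPM), and its PA2 library the highest erythroid sum in PA2 (3261 CPM). Their part in the spread was not tested.

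**Figure D4:**
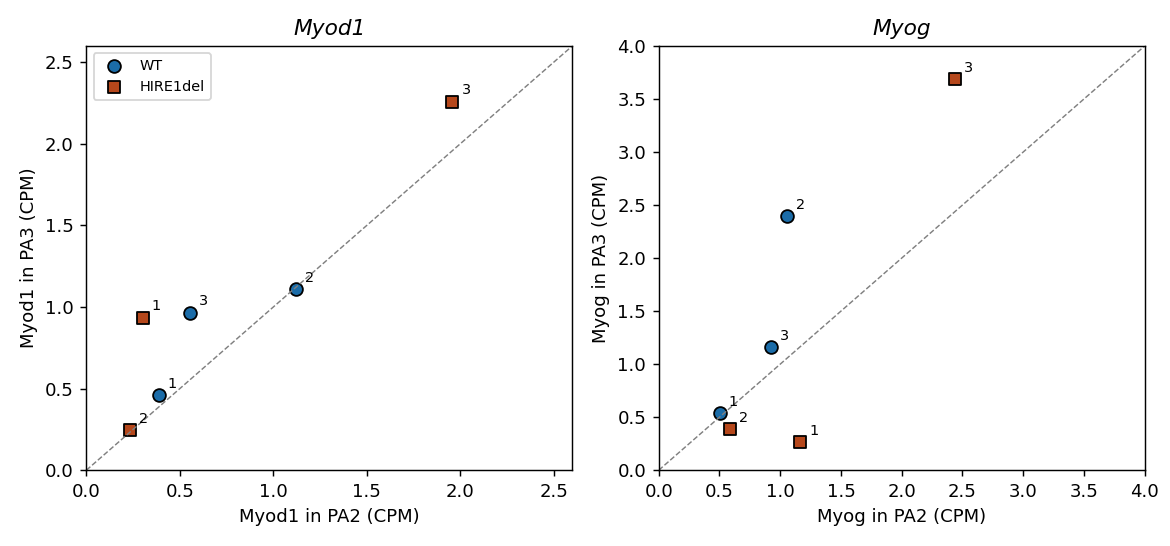
Myod1 and Myog in the 6 pairs of PA2 and PA3 libraries with the same genotype and number. The x axis gives CPM in PA2 and the y axis CPM in PA3, with colours for genotype and labels for the number; the line marks equal values. HIRE1del/del number 3 is the farthest point to the upper right for both genes.

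In the sorted crest cells most of the 9 genes were near or under the limit of counting. Set side by side and not tested, since the series were sequenced and scaled separately and sorting and series cannot be told apart, Tcf21 stood at 11.3 to 12.9 CPM in dissected WT PA2 and at 0.100, 0.172 and 0.131 CPM in sorted E10.5 PA2, the latter from 3 to 5 counts. Msc stood at 4.66 to 6.12 CPM in dissected WT PA2 and at 0.0669, 0.206 and 0 CPM in the sorted cells, and Lhx2 at 13.6 to 17.6 CPM and at 0.100, 0.377 and 0.425 CPM. Myf5 stood at 6.31 to 7.28 CPM in dissected WT PA2, and no count was seen in the 3 sorted libraries, where 3 counts would be 0.0980 to 0.103 CPM. Des stood at 15.2 to 17.3 CPM dissected and 10.2, 4.77 and 3.95 CPM sorted, the highest of the 9 per length in the sorted cells (1.68 CPM per kb). Mean CPM dissected and sorted was 0.688 and 0.133 for Myod1, 0.826 and 0.257 for Myog, 1.41 and 0.356 for Actc1, and 13.7 and 0.951 for Ttn. Endothelial, erythroid and epithelial sums differed between the series in the same direction as Tcf21, Msc, Lhx2 and Myf5, and their part in these values was not tested.

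Across the stages 4 of the 9 genes passed the filter: Lhx2, Des, Actc1 and Ttn. Lhx2 passed through 3 pinna libraries and Actc1 through the E12.5 libraries alone, so each had to be higher there to be tested, and their fits are given without the filter. The 5 that did not pass were Tcf21 (0 to 1 count in each pinna library), Msc (0 to 0.408 CPM over the 9 libraries), Myf5 (0 to 0.131 CPM), Myod1 (0.0220 to 0.328 CPM) and Myog (0.134 to 0.718 CPM). Des and Ttn had at least 2 libraries over the limit at more than 1 stage, but fewer than 2 at E12.5 for Des and at E10.5 for Ttn. They too passed through the stages where they were high, so their fits without the filter are given as well. With the filter, both were called between E12.5 and E10.5, where 68.8% of all genes tested passed, and between E14.5 and E12.5 (65.7% of all genes). Ttn alone of the pair was called between E14.5 and E10.5 (82% of all genes).

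Ttn stood at 0.602, 1.27 and 0.980 CPM at E10.5, at 9.77, 12.8 and 12.9 CPM at E12.5 and at 6.10, 8.39 and 7.64 CPM at E14.5. No stage overlapped another. Ttn was 12.4-fold higher at E12.5 than at E10.5 (log2 3.64, SE 0.242, adjusted p = 2.07e-07, edgeR) and 1.60-fold lower at E14.5 than at E12.5 (log2 -0.68, adjusted p = 0.00930). At E14.5 it was still 7.75-fold above E10.5 (adjusted p = 3.63e-07). In the fit with no filter on low counts, the log2 difference of Ttn was 3.62 between E12.5 and E10.5 (adjusted p = 2.76e-09, edgeR). Between E14.5 and E10.5 it was 2.92 in that fit (adjusted p = 1e-08). The summed CPM of the 6 cardiomyocyte genes was 3.19 to 3.66 at E10.5, 3.20 to 3.71 at E12.5 and 4.58 to 5.31 at E14.5, with Nppa at 0 at each stage and Nkx2-5 at 0 in the pinna.

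Actc1 stood at 0.268, 0.309 and 0.490 CPM at E10.5, at 1.11, 3.72 and 2.69 CPM at E12.5 and at 0.837, 0.652 and 0.657 CPM at E14.5. Every E12.5 library stood above those of both other stages. In the fit with no filter on low counts, the log2 difference of Actc1 was 2.79 between E12.5 and E10.5 (adjusted p = 4.69e-05, edgeR) and -1.83 between E14.5 and E12.5 (adjusted p = 0.000924). Between E14.5 and E10.5 it was 0.97 and did not pass (adjusted p = 0.0700).

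Des went the other way. It stood at 10.2, 4.77 and 3.95 CPM at E10.5, at 0.668, 1.14 and 0.782 CPM at E12.5 and at 6.08, 5.61 and 10.0 CPM at E14.5. The E12.5 libraries lay under all others, while E10.5 and E14.5 overlapped. Des was 7.24-fold lower at E12.5 than at E10.5 (log2 -2.86, SE 0.416, adjusted p = 9.14e-05) and 8.28-fold higher at E14.5 than at E12.5 (log2 3.05, SE 0.412, adjusted p = 6.05e-05). Between E14.5 and E10.5 the log2 difference was 0.19 (95% interval -0.56 to 0.94, adjusted p = 0.607), and without E10.5 library 1 it was 0.73 (adjusted p = 0.0336). In the fit with no filter on low counts, the log2 difference of Des was -2.87 between E12.5 and E10.5 (adjusted p = 8.31e-06, edgeR). Between E14.5 and E12.5 it was 3.03 in that fit (adjusted p = 4.97e-06).

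Desmin is also made by smooth muscle and pericytes around vessels. The summed CPM of 5 smooth muscle genes was 2.92 to 4.05 at E10.5, 6.28 to 9.18 at E12.5 and 19.2 to 24.9 at E14.5, and that of 5 endothelial genes, in cells sorted for the crest reporter, was 6.79 to 8.99, 19.0 to 26.2 and 108 to 173. No gene of the endothelial list was at 0 in a group. In the pinna the endothelial sum was carried by Kdr, a receptor for vascular growth factors, at 16.1 to 19.6 CPM at E12.5 and 101 to 167 CPM at E14.5. At E10.5 Kdr stood at 2.97 to 3.67 CPM. Kdr was the 1 gene of 4 tested in that list that was higher between E12.5 and E10.5 and between E14.5 and E12.5, with list medians of 0.34 and 0.45 on the log2 scale. Of 3 smooth muscle genes tested, 3 were higher at E12.5 than at E10.5, and 2 higher and 1 lower at E14.5 than at E12.5. Of all genes tested, 68.8% and 65.7% passed in these comparisons. The part of these cell types in the change of Des was not tested.

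Lhx2 stood at 0.100, 0.377 and 0.425 CPM at E10.5, at 0.557, 1.04 and 1.19 CPM at E12.5 and at 1.06, 0.399 and 0.460 CPM at E14.5. E10.5 and E12.5 did not overlap, and E14.5 overlapped both. In the fit with no filter, the log2 difference of Lhx2 was 1.61 between E12.5 and E10.5 (adjusted p = 0.0209, edgeR), -0.56 between E14.5 and E12.5 (adjusted p = 0.372) and 1.05 between E14.5 and E10.5 (adjusted p = 0.104). The first is not stable, since with the filter it did not pass without E10.5 library 1 (log2 1.21, adjusted p = 0.0667) or without E12.5 library 2 or 3 (adjusted p = 0.0523 and 0.0694).

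**Figure D5:**
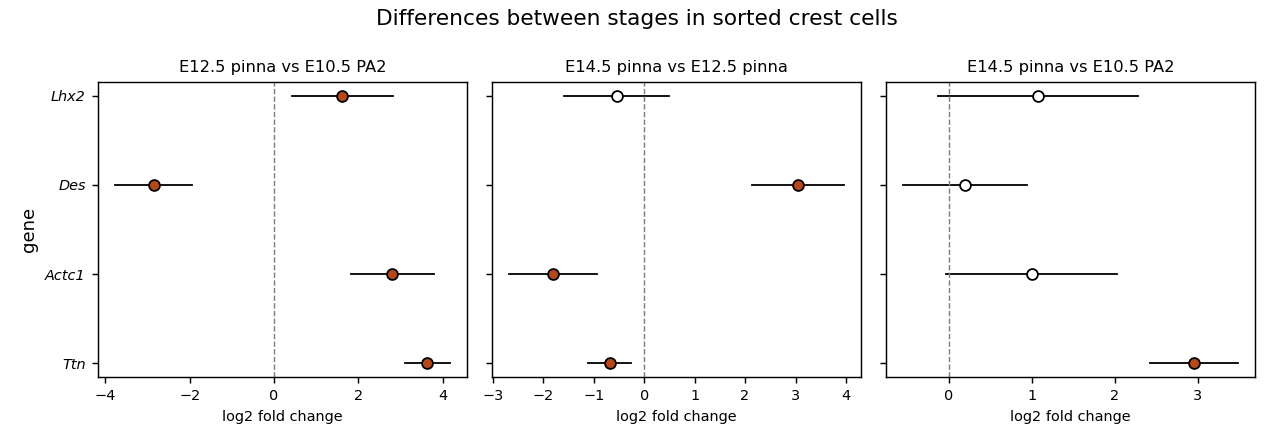
Differences of Lhx2, Des, Actc1 and Ttn between the stages of the sorted crest cells. The x axis gives the log2 fold change with its 95% interval for E12.5 against E10.5, E14.5 against E12.5 and E14.5 against E10.5. Filled points passed an adjusted p of 0.05 in the fit with the filter. Lhx2 and Actc1 passed that filter only through their high libraries, and Des and Ttn through the stages where they were high. Ttn and Actc1 lie above 0 and Des under 0 for the first comparison, and Des, Actc1 and Ttn change sides in the second.

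Other muscle genes of the sorted cells were mixed. Of 8 sarcomere genes tested of 20, 4 were higher and 2 lower at E12.5 than at E10.5, 0 higher and 4 lower at E14.5 than at E12.5, and 3 higher and 3 lower at E14.5 than at E10.5. Of all genes tested, 68.8%, 65.7% and 82% passed in these comparisons, so the list counts are not read as a trait of the lists. Myh3, embryonic myosin heavy chain (log2 4.61), was higher at E12.5 than at E10.5 and Tnni1, slow troponin I, lower (log2 -1.87). These list genes passed the same filter, so a gene low at one stage was tested only because it was high at another. Fits without the filter are not given for these lists. Of 5 myogenic differentiation genes tested of 16, 3 were higher at E12.5 than at E10.5. From E12.5 to E14.5, and from E10.5 to E14.5, 4 were higher and 1 lower. Between E14.5 and E12.5 Megf10, a receptor of muscle precursors and other cells, was at log2 2.58 and Rbm24, an RNA-binding protein of muscle, at log2 -2.81. The summed CPM of 3 hypaxial and somitic muscle genes was 0.163 to 0.468 at E10.5, 1.08 to 2.41 at E12.5 and 13.3 to 15.1 at E14.5. The 1 gene of these tested was higher in each comparison, but lay under the filter limit at E10.5.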

How the data were processed

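RNA-seq of 21 mouse libraries was analysed from 2 tables of counts. The authors aligned reads of 50 bases (paired-end in the genotype series, single-end in the stage series) to GRCm38 with QuasR (spliced alignment) and counted them over UCSC known genes in the opposite orientation, although the kit used, TruSeq RNA v2, does not mark strand; the values were deposited as raw counts without normalization. Of each table, 0 value columns were left unused. The 18 of 24594 genes without a symbol went through the filter and tests under their Entrez number and were left out only of the search for genes with like profiles. The 9 genes and all gene lists were chosen with earlier results of these data known.

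Genes with 1 CPM or more in at least 2 libraries were kept (14383 in the genotype series, 13438 in the stage series). In R 4.3.3, edgeR 4.0.16 fitted 1 mean per group to each table with TMM scaling, and contrasts were tested with its two-sided quasi-likelihood test and Benjamini-Hochberg adjustment over all genes, called at 0.05. CPM used TMM-scaled totals; a floor is 3 counts and covers counting error only. Alternatives were limma-voom (limma 3.58.1), DESeq2 1.42.0, other scalings, no filter, a replicate block, and each library left out; the scripts were tested on simulated data. PA2 and PA3 libraries of the same genotype and number correlated in their deviations (r of 0.213 to 0.382) and were set side by side. The tests between the arches did not use this pairing, except in the alternatives with a block, by number or by number within genotype. Numbers across genotypes or stages were not taken as paired, although the block by number spanned them. Other genes were named as up to 3 per list and contrast with the widest differences among those called. Stage results of the pharyngeal mesoderm list as a whole are not reported here.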

Additional observations from a re-analysis of the deposited data

Results flagged for a closer look

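Hoxa2, the gene that HIRE1 contacts and the check of the labels, was lowered by the deletion more in PA2 than in PA3: the log2 difference between the effects was -2.37 (adjusted p = 1.56e-05, edgeR interaction test, 3 libraries per group), from log2 differences of -3.74 in PA2 and -1.36 in PA3. None of the 9 muscle genes passed the same test.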

How the results depend on the processing

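Of the 18 differences called with the filter, those between stages are of genes that passed the filter through the stages where they were high. Their stability is therefore no support. Each of the 18 kept its direction when 1 library was left out (95 of 108 such values passed, 13 did not). Direction and call were kept in 165 of 169 values under the other settings. Exceptions were, first, Ttn between the arches with limma-voom (log2 1.73 in WT, adjusted p = 0.198, and 2.35 in HIRE1del/del, adjusted p = 0.109). The others were Ttn (-0.07) and Des (0.60) between the arches of HIRE1del/del without the 3 PA3 libraries highest in cardiomyocyte genes. That fit left 1 HIRE1del/del PA3 library, so only effect sizes are given, with -0.85 for Myf5. The count of genes called between the arches was 3 to 4 in WT with 1 library left out, and between E14.5 and E10.5 it was 1 to 2 with 1 library left out and 2 with no filter, where Tcf21 was added (log2 -5.29, a fitted value against E14.5 libraries at 0 and no bound); with no filter Tcf21 was also called between E12.5 and E10.5 (log2 -3.21, adjusted p = 0.0483), from at most 5 counts per library. The cause was not tested.

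Among differences not called, sign changes were frequent for low genes. With limma-voom the log2 differences were -0.23 for Myod1 and -0.19 for Actc1 in PA2, -0.63 for Myog in PA3 and -0.68 for Myog between the arches of HIRE1del/del. The replicate block by number gave -0.26 for Myog in PA3 and -0.23 between the arches, and the block within genotype -0.30 for the latter; the pairing changed no call. Without both libraries of HIRE1del/del number 3 (chosen after seeing the data) values were 0.14 for Msc, -1.35 for Myod1 and -0.89 for Actc1 in PA2, 0.14 for Tcf21, -0.54 for Myod1, -2.06 for Myog and 0.08 for Des in PA3, and 0.22 for Tcf21 and -1.42 for Myog between the arches. Without the 3 PA3 libraries (also chosen after seeing the data) they were 0.02 for Tcf21, -1.68 for Myod1, -1.94 for Myog, 0.09 for Des, -0.14 for Actc1 and -1.61 for Ttn in PA3, 1.97 for Myod1, 0.30 for Actc1 and 1.37 for Ttn in the difference between the arches' effects, and -1.76 for Myod1 and -1.86 for Myog between the arches of HIRE1del/del. Leaving out 1 library gave ranges in PA2 of -0.18 to 0.14 for Msc, -1.35 to 0.81 for Myod1 and -0.89 to 0.51 for Actc1. In PA3 they were -0.18 to 0.14 for Tcf21, -0.00136 to 0.54 for Myf5, -0.54 to 0.91 for Myod1, -2.06 to 0.76 for Myog and -0.11 to 0.08 for Des. For the difference of effects they were -1.78 to 0.82 for Myod1, -0.02 to 2.81 for Myog and -1.11 to 0.29 for Actc1, between the arches of HIRE1del/del -0.18 to 0.14 for Tcf21, -0.52 to 2.08 for Myod1 and -2.09 to 0.73 for Myog, and between E14.5 and E10.5 -0.11 to 0.73 for Des.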

Other observations

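For each role group the genes whose log2 CPM across libraries was most like the group's mean profile were listed, as a description in which the libraries share groups and depth. Over the 12 libraries of the genotype series these were Rbbp4 (r = 0.939), Chml (0.933) and Umodl1 (0.931) for the progenitor factors, BC037032 (0.916), Ctsk (0.895) and Mnd1 (0.895) for the myogenic regulatory factors, and Tnni1 (0.985), Dkk1 (0.979) and Gata5 (0.978) for the contractile genes. Over the 9 libraries of the stage series they were Arvcf (0.840), Bckdk (0.837) and Cenpb (0.812), Zfand1 (0.924), Chst2 (0.919) and Lemd3 (0.918), and Zfp229 (0.983), Tmem168 (0.980) and Aph1b (0.976) in the same order, where the progenitor and regulatory factors were mostly under 1 CPM.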
